A study of Mus musculus with 9 samples.

Results

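Gata4, Gata5, Gata6, Hand2, Tbx5, Tbx20, Nkx2-5, Mef2a, Mef2c and Isl1 are genes of transcription factors that build the heart in the embryo. They were taken by symbol from a table of 54532 mouse genes, and all 10 were found once. Expression was measured by RNA sequencing in cultured cardiosphere-derived cells (CDCs), which are heart cells that grow out of tissue pieces, detach as spheres and are replated as a monolayer. Of the 10 genes, 8 were measured above the floor of detection in primary cells. The clearest difference was Nkx2-5, which had reads in the primary cells and none in either group of immortalized cells, while Gata4 stayed among the more abundant mRNAs of all 3 groups.

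The 3 groups had 3 libraries each, numbered as replicates 1 to 3, and all cells came from C57BL/6 mice. The primary cells (pECDCs, titled P0) were labelled as explant cultures of the heart ventricle, and by the study's methods they came from peeled epicardium of 6-week-old mice at passage 3. The immortalized cells (iECDCs, titled P30) carried a lentivirus with hTERT, the catalytic subunit of human telomerase, were selected with puromycin and were at passage 30. The treated cells (titled SBT) were, by their labels, iECDCs given SB431542 for 3 days. SB431542 blocks the kinase of the type I receptors of TGF-β and activin. The study's methods instead describe a treated epithelial clone of pECDCs, so the cell of origin of these libraries is given differently in the sources, and the groups follow the labels. Immortalization, selection and the number of passages cannot be told apart between pECDCs and iECDCs. The human transgene is not among the mouse genes of the table and was not checked here. Nothing says that libraries of a group came from separate animals or cultures, so the p-values measure the spread between these libraries, which may be technical.

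The heart is patterned by a core set of factors that bind DNA together and switch on each other's genes and those of the contractile apparatus. GATA zinc-finger factors, T-box factors, the homeodomain factor Nkx2-5, the basic helix-loop-helix factor Hand2 and the MADS-box factors Mef2a and Mef2c belong to this set, and Isl1 marks progenitors of the second heart field. Several of these genes also stay active outside cardiomyocytes, in the epicardium and in cardiac fibroblasts, where Gata4, Tbx20 and Hand2 are well known.

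Reads counted on genes summed to between 16568306 and 23951392 per library. Levels are given as FPKM, the authors' count divided by gene length and by the size of the library, which allows genes to be set beside each other. Genes whose count was 3 or less in each library of a group are called at the floor, which covers counting error only. Pairs of libraries within a group were compared by the chi-square statistic of their counts over its degrees of freedom, which was 2.70 to 4.61 for 5 of the 9 pairs. It was 24.9 and 30.8 for the pairs with iECDC replicate 3 and 70.3 and 71.5 for the pairs with SB431542 replicate 2, so these 2 libraries stood apart, and results that rest on them are given with and without them. The cells had a summed level of 1574 to 2370.3 FPKM over 10 fibroblast markers, of which 7 or 8 reached a mean of 1 FPKM in a group. Most of this sum was Col1a1, Vim and Col1a2, while Postn and Lum were below 1 FPKM in every library. The smooth muscle marker Acta2 was high as well, at a mean of 728 FPKM in pECDCs, 1186 in iECDCs and 199 in treated cells. Of 25 cardiomyocyte genes, 16 or 17 were at the floor in a group, and the summed level of 7 endothelial markers was at most 0.181 FPKM in any library. In bulk RNA, fewer cells of a type and less RNA per cell cannot be told apart.

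Gata4 was the most abundant of the 10 genes in every group, and its level lay above that of 96.5% of 22046 protein-coding genes in pECDCs, 96.01% in iECDCs and 95.9% in SB431542-treated cells. In pECDCs the order by mean FPKM was Gata4, Hand2, Gata6, Tbx5, Mef2a, Tbx20, Nkx2-5 and Mef2c, and no 2 neighbors in this order had overlapping libraries. In iECDCs the order was Gata4, Hand2, Gata6, Mef2a, Tbx5, Tbx20 and Mef2c. There the libraries of Tbx5 and Tbx20 overlapped in range, although Tbx5 was the higher within each library. In SB431542-treated cells the same held for Tbx5 and Mef2a, while the libraries of Hand2 and Gata6 overlapped and Gata6 was the higher in replicates 1 and 3 only. Gata5 and Isl1 were at the floor in all groups.

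**Figure D1:**
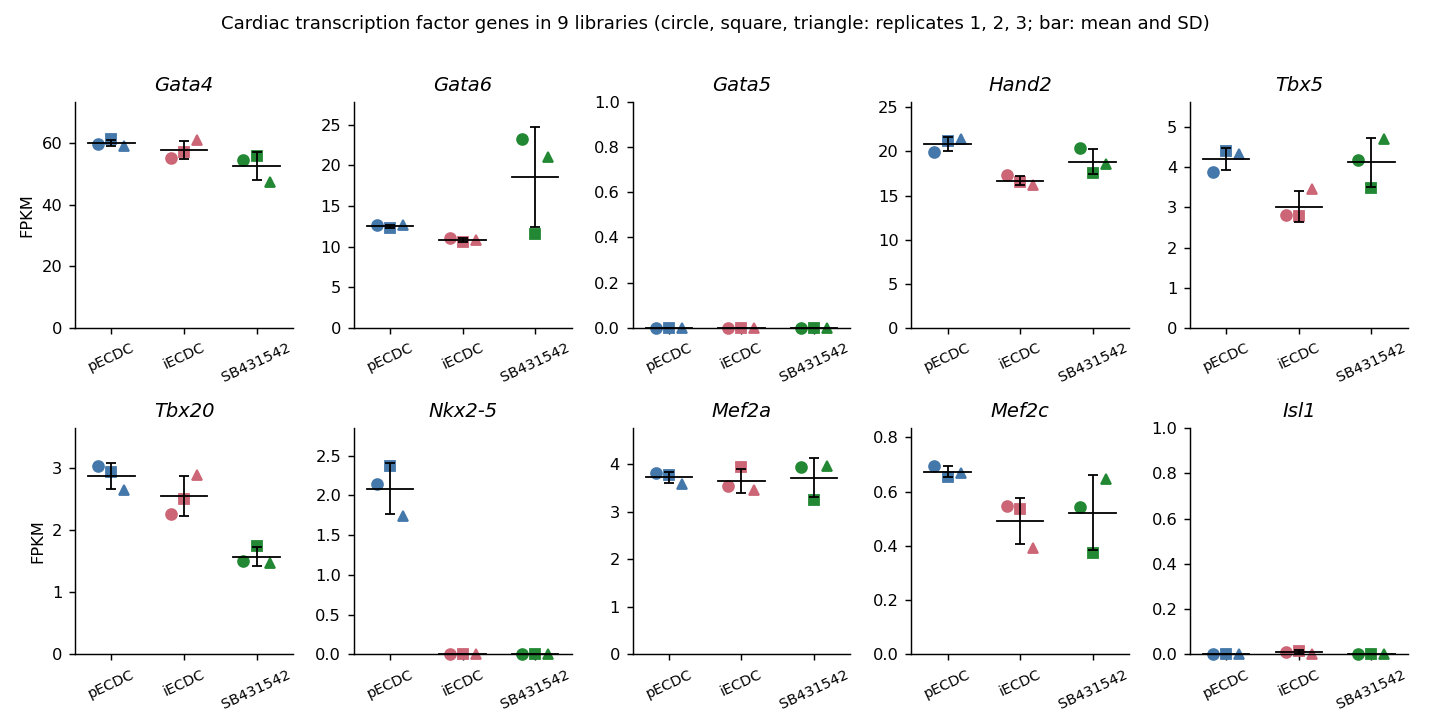
Level of each of the 10 genes in FPKM (y axis, each panel with its own scale from 0) in 3 libraries of pECDCs, iECDCs and SB431542-treated cells (x axis). Symbols are libraries, and the line and bar are the mean and SD of 3 libraries. Nkx2-5 is at 0 in the 6 iECDC and SB431542 libraries, and Gata6 in SB431542-treated cells ranges from 11.6 to 23.2 FPKM.

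Nkx2-5 encodes the NK2 homeodomain factor of early cardiac progenitors and cardiomyocytes, and its gene lies at chr17:26838664-26841565 on the minus strand (GRCm38). Its counts in pECDC replicates 1, 2 and 3 were 80, 72 and 62, or 2.14, 2.37 and 1.74 FPKM (mean 2.08 ± 0.319, SD, n = 3). In the 3 iECDC and the 3 SB431542 libraries its count was 0. The groups therefore did not overlap, and every pECDC library was far above every other library. A count of 0 allows up to 3 counts per library, which is 0.128 FPKM in iECDCs and 0.112 FPKM in SB431542-treated cells. Against this floor Nkx2-5 was at least 16.64-fold lower in iECDCs and at least 18.7-fold lower in SB431542-treated cells than in pECDCs. With edgeR's quasi-likelihood test and Benjamini-Hochberg adjustment the adjusted p was 0.000168 for iECDCs and 0.000759 for SB431542-treated cells. Both comparisons share the pECDC libraries. The gene was called in all 13 alternative settings of each comparison. It passed the filter on low counts through pECDCs alone, so these p-values and calls are no support beyond the counts themselves.

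Such a loss was rare among expressed genes. Of 11356 genes with at least 50 counts in every pECDC library, 13 had at most 3 counts in every iECDC library. Of these 13 genes, 7 were also at the floor in all SB431542 libraries, and 0 returned to at least 50 counts in every SB431542 library. Nkx2-5 was 1 of these 7, beside the cell cycle inhibitor genes Cdkn2a and Cdkn2b, the homeobox gene Barx1, the T-box gene Tbx4, the adhesion gene Sdk2 and the kinase gene Frk. Among the 13 genes, 3 encode transcription factors (Barx1, Tbx4 and Nkx2-5), of 813 transcription factor genes with that pECDC count. Of the 7 genes of the NK2 family, the other 6 had at most 3 counts in every library. Likeness to Nkx2-5 over the 9 libraries was searched among protein-coding genes with a mean of at least 1 FPKM, which left out Tbx4. The nearest of these were Tnfrsf26 and Cdkn2b, with root mean square differences of 0.640 and 0.649 on the log2 scale after centering each gene. Nkx2-5 itself had a root mean square deviation of 2.82 from its own mean.

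The 250 bases before the annotated start of Nkx2-5 are printed because the gene went from expressed to floor, followed by those of Tbx20 and Hand2, whose results are given below. They are RefSeq sequences on GRCm38.p6, read 5′ to 3′ on the strand of the gene. Capitals mark matches on either strand to the GATA motif AGATAA, the NK2 motif CAAGTG or the SMAD motif CAGAC, which is written in reverse complement where it lies on the other strand.
Nkx2-5, chr17:26841566-26841815, minus strand: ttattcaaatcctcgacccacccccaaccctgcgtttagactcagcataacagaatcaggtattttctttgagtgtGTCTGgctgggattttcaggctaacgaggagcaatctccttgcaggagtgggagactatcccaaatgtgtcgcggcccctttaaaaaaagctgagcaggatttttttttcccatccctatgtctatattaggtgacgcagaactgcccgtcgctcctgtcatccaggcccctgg
Tbx20, chr9:24774304-24774553, minus strand: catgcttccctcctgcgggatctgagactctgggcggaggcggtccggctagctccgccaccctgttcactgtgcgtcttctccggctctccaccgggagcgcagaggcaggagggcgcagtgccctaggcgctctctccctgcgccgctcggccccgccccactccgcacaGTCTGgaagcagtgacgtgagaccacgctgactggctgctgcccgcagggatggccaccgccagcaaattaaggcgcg
Hand2, chr8:57320733-57320982, plus strand: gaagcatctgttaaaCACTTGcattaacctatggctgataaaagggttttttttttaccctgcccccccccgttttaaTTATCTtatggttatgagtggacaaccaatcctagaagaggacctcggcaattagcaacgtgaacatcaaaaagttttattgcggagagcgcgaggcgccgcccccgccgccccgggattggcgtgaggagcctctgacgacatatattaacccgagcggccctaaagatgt

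The Nkx2-5 window held 1 match to CAGAC, at base -174 from the start. The Tbx20 window also held 1 match to CAGAC, at -78, and 68.8% of its bases were G or C, against 49.2% in the windows of Nkx2-5 and Hand2. The Hand2 window held CAAGTG at -235 and AGATAA at -172. These letters are common. Among 32851 promoter windows of 300 bases (250 before and 50 after the start), 49.6% held CAGAC, 13.6% CAAGTG and 11.2% AGATAA. The T-box core AGGTGT was found in 13.7% of windows, and among the windows of the 10 genes only in 1 of the 3 of Mef2c. AGATAG (8.95% of windows) and the palindromic SMAD motif GTCTAGAC (0.213%) were in none of them. The MEF2 motif was in 0.557% of all windows and in that of Mef2a, at -2. The windows of 7 of the 10 genes were searched, without those of Gata4, Gata6 and Tbx5. No motif is contained in another, and a match is a run of letters, not a bound site.

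GATA factors bind the letters GATA through zinc fingers, and Gata4, Gata5 and Gata6 are the members of the family known for the heart. Gata4 (chr14:63198922-63271692, minus strand) was at 59.8, 61.1 and 59.1 FPKM in pECDC replicates 1, 2 and 3 (60.0 ± 1.03). In iECDCs it was at 55.2, 57.1 and 60.9 FPKM (57.7 ± 2.94), and in SB431542-treated cells at 54.3, 55.8 and 47.4 FPKM (52.5 ± 4.46). Gata4 was thus at a similar level in pECDCs and iECDCs, whose libraries overlapped, while the 3 treated libraries lay below the 3 pECDC libraries. Its log2 fold change was -0.07 ± 0.0611 (SE) in iECDCs against pECDCs (edgeR adjusted p = 0.474). Against pECDCs the treated cells gave -0.18 ± 0.0811 (edgeR adjusted p = 0.118), and without SB431542 replicate 2 this became -0.23 (edgeR adjusted p = 0.00082).

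Gata6, whose factor acts beside Gata4 in heart and endoderm, lies at chr18:11052508-11085635 on the plus strand. Its level was 12.6, 12.3 and 12.6 FPKM in pECDCs (12.5 ± 0.168) and 11.1, 10.6 and 10.8 FPKM in iECDCs (10.8 ± 0.241). In SB431542 replicates 1, 2 and 3 it was 23.2, 11.6 and 20.97 FPKM (18.6 ± 6.16). All iECDC libraries lay below all pECDC libraries by a narrow gap. All treated libraries lay above all iECDC libraries, but replicate 2 was close to the untreated level and below the pECDC libraries. Gata6 fell by 14.3% in iECDCs, a log2 fold change of -0.22 ± 0.0586 (edgeR adjusted p = 0.0320). This call was kept in 7 of 13 alternatives and was lost without pECDC replicate 1, 2 or 3 (edgeR adjusted p = 0.151, 0.123 and 0.139), without iECDC replicate 2 (0.0811), with the replicate number as a block (0.0838) and with all 9 libraries in the fit (0.565).

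In SB431542-treated cells Gata6 rose 1.73-fold against iECDCs, a log2 fold change of 0.79 ± 0.231 (edgeR adjusted p = 0.0350). Of 14 alternatives 7 kept this call. It was lost without iECDC replicate 1, 2 or 3 (edgeR adjusted p = 0.102, 0.106 and 0.0912), without SB431542 replicate 1 or 3 (0.121 and 0.105) and with limma on log2(FPKM + 1) or log2(FPKM + 0.1) (0.0657 and 0.0619). Without SB431542 replicate 2 the log2 fold change was 1.04 (edgeR adjusted p = 2.47e-05), and with iECDC replicate 3 left out as well it was 1.03 (2.07e-13). Against pECDCs the treated cells gave 0.58 ± 0.236 (edgeR adjusted p = 0.0966), and 0.83 without SB431542 replicate 2 (edgeR adjusted p = 4.76e-11). Direct target genes of TGF-β differed between the same libraries. Their summed level over 8 genes was 126 to 330 FPKM in treated libraries, against 2108 to 2502 in iECDCs. Of the 8 target genes, 6 fell in treated cells against iECDCs and Bhlhe40 was not called, while 14.0% of all genes tested fell. Tgfbi rose by 3.53 on the log2 scale (edgeR adjusted p = 0.00405). The part of SB431542 replicate 2 in the Gata6 result was not tested beyond leaving it out.

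The opposite-strand gene 1010001N08Rik overlaps Gata6 by 60 bases, and the strand of the reads is not given in the sources used here. Its counts were 35, 37 and 39 in pECDCs, 30, 24 and 18 in iECDCs and 66, 39 and 113 in treated cells. It rose in treated cells against iECDCs by 1.52 on the log2 scale (edgeR adjusted p = 0.0321), and here too treated replicate 2 was the lowest of its group. Gata6 itself had 926 to 2274 counts per library, and to which of the genes reads of the shared bases were assigned was not tested.

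The ratio of Gata4 to Gata6 within a library was 4.74, 4.96 and 4.69 in pECDCs (4.80 ± 0.145) and 4.98, 5.38 and 5.65 in iECDCs (5.34 ± 0.341). In treated replicates 1, 2 and 3 it was 2.34, 4.81 and 2.26 (3.14 ± 1.45). The iECDC libraries lay above the pECDC libraries, and the treated libraries lay below the iECDC libraries. The exact permutation test, two-sided, gave p = 0.1 for both, which is the smallest p that 3 libraries against 3 allow, and p = 0.3 for treated cells against pECDCs. Within the treated group the ratio was much lower in replicates 1 and 3 than in replicate 2. It is made of the FPKM values given above and is no separate support for them.

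Gata5 had 0 counts in all 9 libraries, which allows at most 0.0460 FPKM in pECDCs, 0.0596 in iECDCs and 0.0522 in treated cells. Its antisense gene Gata5os was also at 0. Of the other GATA genes, Gata2, known from blood and endothelial cells, was at 3.39 ± 0.111 FPKM in pECDCs and 4.70 ± 0.380 in iECDCs, and it rose in iECDCs by 0.46 on the log2 scale (edgeR adjusted p = 0.00780). Gata3, known from T cells and trophoblast, was below 1 FPKM in every group and fell in treated cells against iECDCs by 1.47 on the log2 scale (edgeR adjusted p = 0.0112). Of the 6 GATA genes, 3 reached a mean of 1 FPKM in some group: Gata4, Gata6 and Gata2.

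T-box factors share a DNA-binding domain first described in Brachyury. Tbx5, which patterns the atria, the left ventricle and the forelimb, lies at chr5:119832668-119885219 on the plus strand. Its level was 3.87, 4.39 and 4.32 FPKM in pECDCs (4.20 ± 0.283) and 2.81, 2.77 and 3.45 FPKM in iECDCs (3.01 ± 0.383). In treated cells it was 4.17, 3.49 and 4.69 FPKM (4.12 ± 0.602). The iECDC libraries were the lowest of all, without overlap with either of the other groups, and the pECDC and treated libraries overlapped.

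Tbx5 fell by 29.1% in iECDCs against pECDCs, a log2 fold change of -0.50 ± 0.110 (edgeR adjusted p = 0.0162). The call was kept in 9 of 13 alternatives. It was lost without pECDC replicate 2 or 3 (edgeR adjusted p = 0.0849 and 0.0804), without iECDC replicate 2 (0.0547) and with all 9 libraries in the fit (0.0716). In treated cells against iECDCs the log2 fold change was 0.46 ± 0.161 and missed the threshold (edgeR adjusted p = 0.0599). It passed without iECDC replicate 3, at 0.56 (edgeR adjusted p = 0.0481), without SB431542 replicate 2, at 0.57 (0.00821), without both, at 0.68 (6.95e-06), and with all 9 libraries in the fit (0.0219). Against pECDCs the treated cells gave -0.02 ± 0.129 (edgeR adjusted p = 0.921).

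Tbx20, a T-box factor of the myocardium, the endocardial cushions and cardiac fibroblasts, lies at chr9:24718138-24774303 on the minus strand, and its promoter window is printed above. Its level was 3.03, 2.93 and 2.64 FPKM in pECDCs (2.87 ± 0.204) and 2.25, 2.49 and 2.89 FPKM in iECDCs (2.54 ± 0.319). In treated cells it was 1.502, 1.74 and 1.46 FPKM (1.57 ± 0.152). The pECDC and iECDC libraries overlapped, and all treated libraries were below all others. Tbx20 fell by 37.7% in treated cells against iECDCs, a log2 fold change of -0.68 ± 0.135 (edgeR adjusted p = 0.00899). Against pECDCs it fell by 44.9%, with -0.86 ± 0.101 (edgeR adjusted p = 0.00150). Both calls were kept in all 14 and all 13 alternatives tried, with the largest adjusted p at 0.0442 and 0.0135. In iECDCs against pECDCs its log2 fold change was -0.19 ± 0.101 (edgeR adjusted p = 0.236), and it was -0.28 without iECDC replicate 3 (edgeR adjusted p = 0.00956).

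Tbx5 and Tbx20 thus had different patterns. The ratio of Tbx5 to Tbx20 was 1.28, 1.5 and 1.64 in pECDCs (1.47 ± 0.183), 1.25, 1.11 and 1.2 in iECDCs (1.18 ± 0.0681) and 2.78, 2.0 and 3.21 in treated cells (2.66 ± 0.611). The 3 groups did not overlap, with iECDCs lowest and treated cells highest. Each pair of groups gave p = 0.1 in the exact permutation test, two-sided, the smallest p possible here. The ratio is made of the FPKM values given above, so it is no separate support for them.

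**Figure D2:**
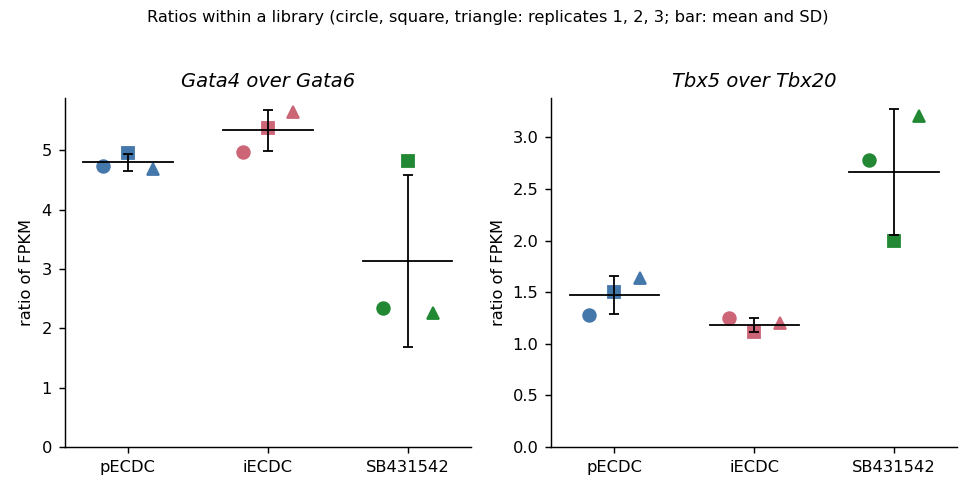
Ratio of FPKM between 2 genes of the same family within each library (y axis, from 0) in pECDCs, iECDCs and SB431542-treated cells (x axis), with Gata4 over Gata6 on the left and Tbx5 over Tbx20 on the right. Symbols are libraries, and the line and bar are the mean and SD of 3 libraries. Replicate 2 of the treated cells lies near pECDCs for Gata4 over Gata6, at 4.81, and lowest of its group for Tbx5 over Tbx20, at 2.0.

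The 10 genes hold 2 of the 17 T-box genes of the table, of which 8 reached a mean of 1 FPKM in some group and 6 had at most 3 counts in every library. The most abundant was Tbx18, a factor of the epicardium and the sinus node, at 19.6 ± 0.638 FPKM in pECDCs and 22.4 ± 3.19 in iECDCs. In treated replicates 1, 2 and 3 Tbx18 was at 39.7, 22.9 and 41.8 FPKM, with replicate 2 near the untreated level and lowest of its group, as for Gata6. It rose in treated cells against pECDCs by 0.84 on the log2 scale (edgeR adjusted p = 0.0228) and was at 0.65 against iECDCs (0.0626). Tbx3, a repressor of the working myocardial program in the conduction system, fell in iECDCs by 0.85 on the log2 scale (edgeR adjusted p = 0.00114).

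Tbx4, a hindlimb and lung mesenchyme factor, was at 1.26 ± 0.153 FPKM in pECDCs and at 0 counts in all 6 other libraries, at least 22.4-fold lower in iECDCs and at least 25.1-fold lower in treated cells. Tbx15, Mga and Tbx2 were not called in any of the 3 comparisons.

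**Figure D3:**
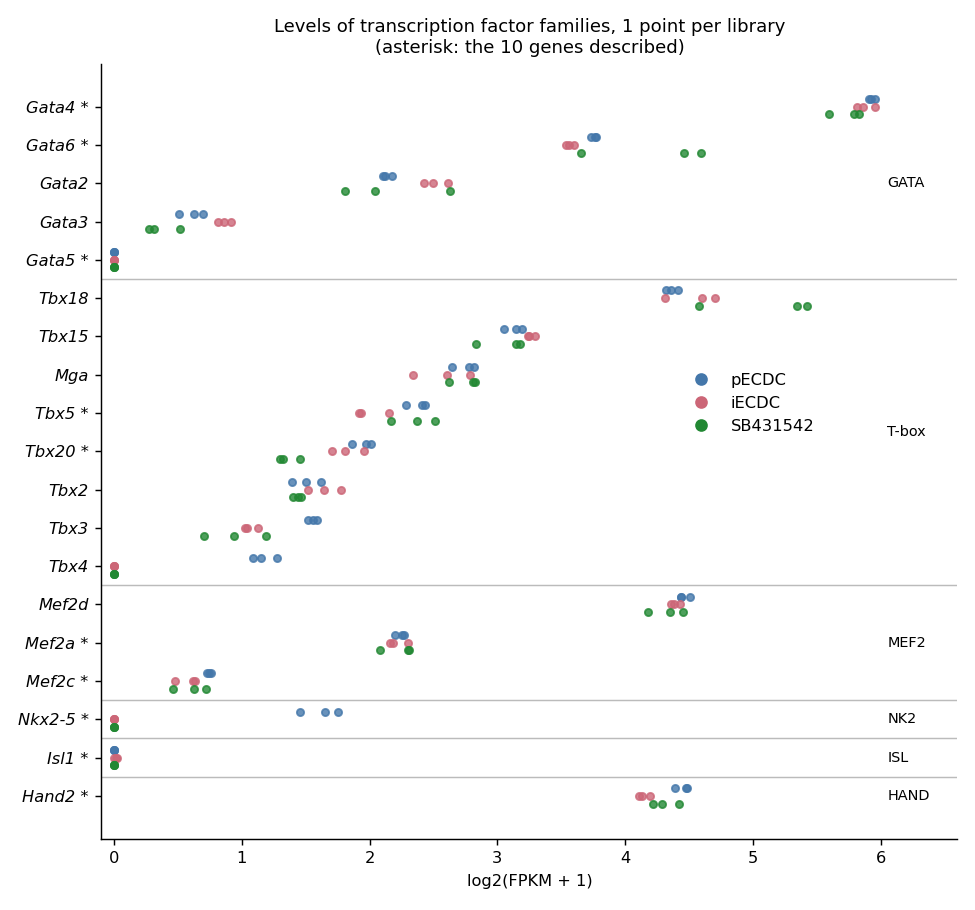
Level as log2(FPKM + 1) (x axis) of the genes of the GATA, T-box, MEF2, NK2, ISL and HAND families with a mean of at least 0.5 FPKM in some group, and of the 10 described genes (asterisk), with 1 point for each library of pECDCs, iECDCs and SB431542-treated cells. Tbx4 and Nkx2-5 are above 0 in pECDCs only, and Tbx18 and Gata6 reach their highest values in 2 of the treated libraries.

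Hand2, a basic helix-loop-helix factor needed for the right ventricle and the limb, lies at chr8:57320983-57324633 on the plus strand. It was at 19.96, 21.2 and 21.4 FPKM in pECDCs (20.8 ± 0.766) and at 17.3, 16.5 and 16.2 FPKM in iECDCs (16.7 ± 0.555). In treated cells it was at 20.4, 17.6 and 18.5 FPKM (18.8 ± 1.41). The iECDC libraries were below all others, and the treated and pECDC libraries overlapped. Hand2 fell by 20.5% in iECDCs, a log2 fold change of -0.33 ± 0.0664 (edgeR adjusted p = 0.0101). The call was kept in 11 of 13 alternatives and lost without pECDC replicate 2 or 3 (edgeR adjusted p = 0.0669 and 0.0646). Treated cells gave 0.18 ± 0.103 against iECDCs (edgeR adjusted p = 0.204), which passed only with iECDC replicate 3 and SB431542 replicate 2 both left out, at 0.21 (0.0240). Its relative Hand1 had at most 3 counts in every library.

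The noncoding gene AV026068 overlaps Hand2 by 3251 bases on the minus strand, so that reads could be assigned to either gene. Its counts were 145, 140 and 122 in pECDCs, 91, 56 and 57 in iECDCs and 116, 134 and 174 in treated cells. The iECDC libraries were again the lowest, without overlap. AV026068 fell in iECDCs by 0.64 on the log2 scale (edgeR adjusted p = 0.0337) and rose in treated cells against iECDCs by 0.97 (0.0175). The counts of Hand2 itself were 587 to 1173.

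MEF2 factors are MADS-box proteins of muscle and other cells. Mef2a (chr7:67231163-67372858, minus strand) was at 3.81, 3.76 and 3.58 FPKM in pECDCs (3.72 ± 0.120), 3.54, 3.93 and 3.46 FPKM in iECDCs (3.64 ± 0.253) and 3.93, 3.24 and 3.96 FPKM in treated cells (3.71 ± 0.409). The libraries of all groups overlapped. The log2 fold changes were -0.04 ± 0.0717 in iECDCs against pECDCs, 0.04 ± 0.118 in treated cells against iECDCs and 0.01 ± 0.0972 against pECDCs (edgeR adjusted p = 0.727, 0.825 and 0.969). The sign of the last 2 changed with the settings.

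The gene Lysmd4 lies on the opposite strand across 76168 bases of Mef2a, with 190 to 224 counts in pECDCs, 92 to 126 in iECDCs and 208 to 252 in treated cells. Lysmd4 fell in iECDCs by 0.52 on the log2 scale (edgeR adjusted p = 0.0455) and rose in treated cells against iECDCs by 0.92 (0.0149).

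Mef2c, the MEF2 gene of the early heart field, lies at chr13:83504034-83667080 on the plus strand. It was at 0.695, 0.655 and 0.670 FPKM in pECDCs (0.674 ± 0.0202), at 0.548, 0.534 and 0.393 FPKM in iECDCs (0.492 ± 0.0857) and at 0.544, 0.375 and 0.648 FPKM in treated cells (0.522 ± 0.138). All pECDC libraries were above all others, and iECDC replicate 3 and treated replicate 2 were the lowest. The log2 fold change in iECDCs against pECDCs was -0.46 ± 0.139 and just missed the threshold (edgeR adjusted p = 0.0539). It passed in 4 of 13 alternatives, among them without iECDC replicate 3, at -0.32 (edgeR adjusted p = 0.0307). Among the 4 MEF2 genes Mef2d was the most abundant, at 20.6 to 21.7 FPKM in pECDCs, 19.5 to 20.5 in iECDCs and 17.1 to 20.9 in treated cells, and it was not called in any comparison.

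Isl1 (chr13:116298281-116309689, minus strand) had 1 count in iECDC replicate 1, 1 in iECDC replicate 2 and 0 in the other 7 libraries, which is at the floor. The other gene of the family, Isl2, was at most 0.499 FPKM in any library, with 2 to 5 counts in pECDCs, 11 to 18 in iECDCs and 10 to 16 in treated cells. Isl2 rose against pECDCs by 2.55 on the log2 scale in iECDCs and by 2.19 in treated cells (edgeR adjusted p = 0.00329 and 0.00669). It passed the filter on low counts through iECDCs alone in the first and through treated cells alone in the second. These p-values are therefore no support beyond the counts themselves.

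Set side by side, the 10 genes gave these counts in iECDCs against pECDCs. Gata6, Hand2, Tbx5 and Nkx2-5 fell, none rose, Gata4, Tbx20, Mef2a and Mef2c were not called, and Gata5 and Isl1 were not tested for want of reads. Nkx2-5 passed the filter on low counts through pECDCs alone. Of all 13752 genes tested, 9.21% fell and 7.21% rose, or 16.4% in either direction. The libraries of Gata6, Hand2, Tbx5, Nkx2-5 and Mef2c lay without overlap below those of pECDCs, a pattern found for 19.2% of all genes tested. The median log2 fold change of the 8 tested genes was -0.28, and is the same with Nkx2-5 set at its bound, against -0.00182 for all genes. Without iECDC replicate 3, 6 of the 10 fell, with Tbx20 and Mef2c added, while 31.7% of all genes were then called. Without pECDC replicate 2 or replicate 3, Nkx2-5 alone of the 10 was called, while the share of all genes called was 7.39% and 7.63%.

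In treated cells against iECDCs, Gata6 rose, Tbx20 fell and Gata4, Hand2, Tbx5, Mef2a and Mef2c were not called, while 16.0% of 13559 genes tested rose and 14.0% fell (30.0% in either direction). Nkx2-5, Gata5 and Isl1 were not tested. The share of the 10 genes called was thus no larger than the share of all genes. Libraries lay without overlap above iECDCs for Gata6, Hand2 and Tbx5, against 23.0% of all genes, and below them for Tbx20, against 23.5%. Without SB431542 replicate 2, Tbx5 was called as well and 50.2% of all genes passed. With iECDC replicate 3 also left out, Hand2 was added and 64.5% of all genes passed. This comparison shares the iECDC libraries with the first.

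In treated cells against pECDCs, Tbx20 and Nkx2-5 fell, none rose, and 6 tested genes were not called, while 34.8% of 14015 genes passed (17.9% higher, 17.0% lower). The libraries of Gata4, Tbx20, Nkx2-5 and Mef2c lay without overlap below those of pECDCs, against 26.4% of all genes. Without SB431542 replicate 2, Gata6 rose and Gata4 fell as well, while 64.1% of all genes passed. Hand2 and Tbx5, which fell in iECDCs, were at -0.14 ± 0.0821 and -0.02 ± 0.129 in this comparison (edgeR adjusted p = 0.233 and 0.921).

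**Figure D4:**
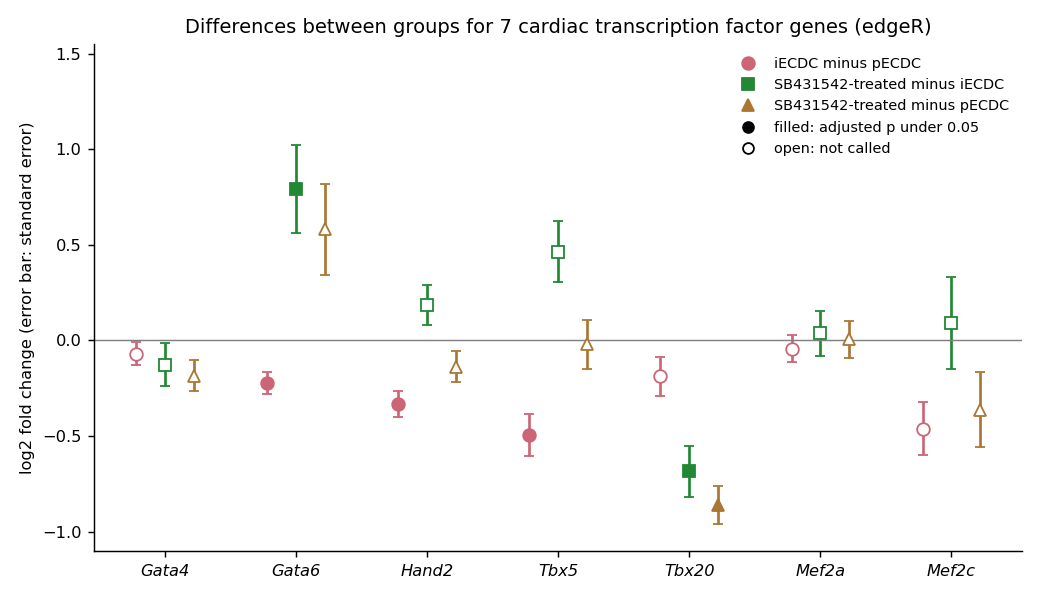
Log2 fold change of 7 genes (y axis, error bar the standard error of the edgeR fit) in 3 comparisons, where filled symbols have an adjusted p under 0.05. Nkx2-5 is left out because its fold is only a lower bound, and Gata5 and Isl1 because they were not tested. Gata6, Hand2 and Tbx5 are filled and below 0 in iECDCs against pECDCs, and Tbx20 is filled and below 0 in both comparisons of treated cells.

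**Figure D5:**
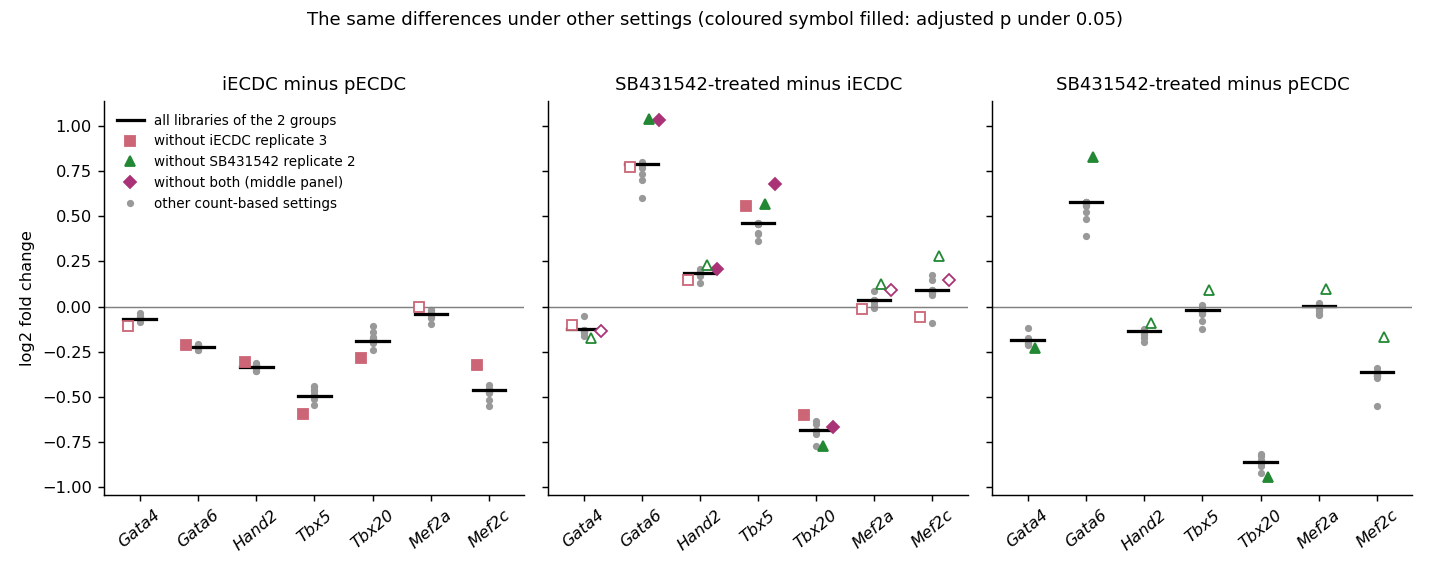
The same log2 fold changes (y axis) for all libraries of the compared groups (black line), without the libraries that stood apart (colored symbols, filled where the adjusted p was under 0.05) and under the other count-based settings (gray points). Gata6 in treated cells against iECDCs moves from 0.79 to 1.04 when SB431542 replicate 2 is left out, and Tbx20 stays between -0.60 and -0.77.

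Beyond these 10 genes, 48 other regulators of heart development were read from a list. In iECDCs against pECDCs 29 of them were tested, 3 rose and 7 fell, or 10 of 29 called against 16.4% of all genes. Without iECDC replicate 3, 7 rose and 12 fell of 31 tested, against 31.7% of all genes. Irx5 (0.83 on the log2 scale), a homeobox gene of the ventricular wall, and Srf (0.45), the MADS-box partner of myocardin, were among those that rose. Nr2f1, Tbx3, Hdac9, Nfatc1, Meis1 and Irx1 were among those that fell. Irx1, at 0 counts in all iECDC libraries, was at least 5.18-fold lower and passed the filter on low counts through pECDCs alone.

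Of the 48, 27 were tested in treated cells against iECDCs, where 5 rose and 5 fell, or 10 of 27 called against 30.0% of all genes. With iECDC replicate 3 and SB431542 replicate 2 left out, 11 rose and 10 fell of 30 tested, against 64.5% of all genes. Hdac9 (2.28 on the log2 scale), Zfpm1 (0.90), Hdac5, Meis1 and Mkl2 rose, of which Hdac5 and Hdac9 encode class IIa deacetylases that bind and repress MEF2 factors. The other class IIa genes of the list, Hdac4 and Hdac7, were at 0.07 and 0.26 on the log2 scale and were not called (edgeR adjusted p = 0.716 and 0.156). Ankrd1 (-1.89), Foxc2 (-1.70), Srf and Zfpm2 were among those that fell, and Zfpm1 and Zfpm2 encode FOG cofactors that bind GATA factors. Zfpm2, chosen after its values were seen, was at 3.05, 3.52 and 2.95 FPKM in iECDCs and at 2.39, 2.12 and 2.49 FPKM in treated cells, without overlap. Hdac9 was at 0.976, 0.347 and 1.13 FPKM in treated replicates 1, 2 and 3, again with replicate 2 lowest, and at 0.151 to 0.178 FPKM in iECDCs. The comparison with pECDCs tested 29, of which 7 rose and 8 fell, or 15 of 29 called against 34.8% of all genes. Without SB431542 replicate 2, 10 rose and 13 fell of 32 tested, against 64.1%.

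Genes of the cardiomyocyte, which factors of this set are known to activate, were mostly near 0. Of 25 such genes, 5 were tested in iECDCs against pECDCs and 6 in each comparison of treated cells. Only the calcium pump gene Atp2a2, which many cell types use, and Tnnc1 reached 1 FPKM in all groups, with Atp2a2 at 82.0 ± 1.25 FPKM in pECDCs. The cardiac troponin gene Tnnt2 was at 0.437 to 0.654 FPKM in pECDCs, 1.12 to 1.67 in iECDCs and 0.0429 to 0.250 in treated cells. It rose in iECDCs by 1.36 on the log2 scale (edgeR adjusted p = 0.00202) and fell in treated cells against iECDCs by 3.07 (0.00378).

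Markers of other cell types moved in the same comparisons. Of 13 epicardial markers 8 were tested in treated cells against iECDCs, and 5 rose and 1 fell, with a summed level of 67.7 to 76.5 FPKM in treated libraries against 52.3 to 61.4 in iECDCs. Wt1, which defines epicardial cells, had 2, 2 and 0 counts in iECDCs, which is at the floor, 14, 4 and 3 in pECDCs and 43, 14 and 39 in treated cells. It rose in treated cells against both other groups (edgeR adjusted p = 0.00615 against iECDCs and 0.0257 against pECDCs), to at most 0.396 FPKM. Wt1 passed the filter on low counts through treated cells alone in both comparisons, as Upk3b and Bnc1 did against iECDCs. Their p-values and calls there are no support beyond the counts themselves. In treated cells against iECDCs, 4 of 6 smooth muscle markers fell, from a summed level of 836 to 1946 FPKM in iECDCs to 149 to 343 FPKM. Of 10 fibroblast markers 8 were tested there, and 4 rose and 1 fell. Both counts stand beside 30.0% of all genes called. In iECDCs against pECDCs, 4 epicardial and 5 fibroblast markers fell and 1 of each rose, of 7 and 9 tested. The share of all genes called was 16.4%. Bnc1, at the floor in iECDCs, passed the filter on low counts through pECDCs alone. The smooth muscle marker Acta2 was at 812, 848 and 1898 FPKM in iECDC replicates 1, 2 and 3, so that replicate 3 stood apart there as well. Of 6 haematopoietic markers 3 were tested, with 1 called in each of these comparisons, and of 6 BMP target genes 5 were tested and 0 called in any comparison. Of these 5 BMP target genes, 2 rose in iECDCs without iECDC replicate 3, against 31.7% of all genes called. In treated cells 4 of the 5 fell against iECDCs with iECDC replicate 3 and SB431542 replicate 2 left out. Their median log2 fold change was -1.07. Without SB431542 replicate 2, 3 fell in treated cells against pECDCs, with a median of -0.97. The shares of all genes called in these 2 settings were 64.5% and 64.1%. With the same 2 libraries left out of treated cells against iECDCs, 6 epicardial markers rose and 2 fell. There 6 fibroblast markers rose and 2 fell, and 6 smooth muscle markers fell, again beside 64.5% of all genes called. The part of these differences in the results of the 10 genes was not tested.

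By the same measure of likeness over 9 libraries, the nearest of 10343 genes were Phrf1 and Dpp9 for Gata4, Ogdhl and Mr1 for Gata6, and Suox and Cd47 for Tbx5. For Tbx20 they were Ammecr1 and Fstl1, for Hand2 Rnf214 and Dnpep, for Mef2a Vps13a and Stk17b, and for Mef2c Syvn1 and Mtif2. The differences of 0.0375 and 0.0392 for Mef2a and of 0.0389 and 0.0417 for Gata4 belong to genes that themselves varied little, with deviations from their own mean of 0.0943 and 0.108. Gata6, with its own deviation at 0.394, had differences of 0.0438 and 0.0627. Nkx2-5, Mef2c, Gata5 and Isl1 were below the limit of 1 FPKM set for this search and could not be found as neighbors. None of the other genes among the 10 was among the 2 nearest of another.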

How the data were processed

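RNA was sequenced in 9 libraries, 3 each of pECDCs, iECDCs and SB431542-treated cells, and grouped by their labels. Counts of reads for each gene were deposited by the authors as raw numbers. The FPKM values that the authors deposited beside them equal the count over gene length and a constant of each library. The submitters' processing notes name TopHat2 2.0.9, Bowtie2 2.0.6 and mm9, but the coordinates of the table match GRCm38, with 53462 of 54409 shared genes at the same position in GENCODE M21. The counting program, and whether it used strand, is not given in the sources used here. Deposited fold changes, p-values and group means of the authors' own comparisons (DESeq) were not used.

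Counts were tested with edgeR 4.0.16 (R 4.3.3) on the libraries of the compared groups: filterByExpr (minimum count 10, total 15), TMM, quasi-likelihood test, Benjamini-Hochberg adjustment over all genes tested and a threshold of 0.05. The common biological coefficient of variation was 0.0919 for iECDCs against pECDCs, 0.171 for treated cells against iECDCs and 0.144 against pECDCs. FPKM values are given as mean ± SD of 3 libraries, and log2 fold changes with the standard error of the fit. Alternatives were DESeq2 1.42.0, RLE size factors, no filter, a fit of all 9 libraries, a block for the replicate number, each library left out in turn, and limma 3.58.1 on log2(FPKM + 1) or log2(FPKM + 0.1). On simulated counts with a log2 change of 1, edgeR recovered 179 of 199 changed genes for iECDCs against pECDCs, with 7 false calls among 13587 genes. It recovered 182 of 197 for treated cells against iECDCs and 176 of 194 against pECDCs, with 9 and 11 false calls. The simulation gave every comparison the same spread, below that of both treated comparisons, and no library that stood apart. It therefore does not measure the recovery in the treated comparisons.

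The 10 genes and all gene lists were chosen with earlier results of these data known. The genes named are the 10, genes that overlap them, the 2 most alike in profile for each of those tested in the fit of all 9 libraries, and listed genes by counts, with values for the 2 largest changes each way or where a result turns on them. Likeness is the root mean square difference of centered log2 CPM (prior count 1) among protein-coding genes with a mean of at least 1 FPKM. Genes of the same families and those lost with Nkx2-5 were named after their values were seen. Single results of some listed genes are left out. For tables and plots, matplotlib 3.10.9, scipy 1.17.1, numpy 2.4.6 and pandas 2.3.3 were run in python 3.11.15.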

Additional observations from a re-analysis of the deposited data

How the results depend on the processing

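Of 306 log2 fold changes of the 10 genes under alternative settings, 258 kept their direction and their side of the threshold, 19 lost the call, 15 gained it and 14 changed sign. The sign changes were of values near 0 that were never called. Mef2a in treated cells against pECDCs was -0.015 without a filter, -0.0095 with all 9 libraries in the fit, -0.0057 and -0.0081 with limma on log2(FPKM + 1) and log2(FPKM + 0.1), and -0.0457 to 0.0952 without 1 library. Without 1 library, Mef2a and Mef2c in treated cells against iECDCs ranged from -0.0150 to 0.124 and from -0.0878 to 0.280, and Tbx5 in treated cells against pECDCs from -0.125 to 0.0903. In iECDCs against pECDCs, 4 of the 10 genes and 2258 genes in all were called, against 2 and 671 with all 9 libraries in the fit and 1 to 6 and 1036 to 4467 without 1 library. Treated cells against iECDCs gave 2 and 4061, against 1 of the 10 with limma at either pseudocount (1 and 0.1), and 1 to 3 and 1707 to 7001 without 1 library. Leaving out iECDC replicate 3 and SB431542 replicate 2 together, a setting chosen after seeing the data, gave 4 and 8951. Treated cells against pECDCs gave 2 and 4881, against 2 to 4 and 2453 to 9188 without 1 library. The highest counts came without iECDC replicate 3 in the first comparison and without SB431542 replicate 2 in the others, and the cause of the other changes was not tested. Libraries with the same replicate number did not deviate together (r from -0.192 to 0.034). This gave no sign of pairing but cannot exclude it, since each deviation is from a mean of 3 libraries, some of which stood apart. With the replicate number as a block, 3, 2 and 2 of the 10 genes and 1791, 3038 and 3886 genes in all were called, and of the 10 genes only Gata6 in iECDCs against pECDCs lost its call (edgeR adjusted p = 0.0838). Genes at the floor cannot be compared at this depth.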
